A study of Mus musculus with 6 samples.

Results

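Ighm, Jchain, Cd79a, Cd79b, Cd3e, Cd3g, Nkg7, Gzma and Ccl5, genes of B, plasma, T and natural killer (NK) cells, were followed in the livers of KRAP-/- mice and of wild-type mice from the same litters. A probeset, the group of oligonucleotides that reads a transcript on the array, was taken for a gene where the annotation names that gene's symbol and no other. By this rule 19 probesets read the 9 genes, of 34945 probesets with a single symbol for 18193 genes. Ighm had 11 of the 19 and each other gene had 1.

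In the KRAP-/- mice, exons 11 to 16 of KRAP, a gene for a protein associated with the actin cytoskeleton and now listed as Itprid2, were replaced by a neomycin resistance cassette in the germ line, and the allele had been backcrossed 6 times to C57BL6/J, so that DNA of the donor strain can remain around it. The 3 KRAP-/- mice and their 3 wild-type littermates were 32 weeks old and ate normal chow, and liver RNA of each mouse was hybridized to its own Affymetrix mouse genome expression array. The labels number the mice 1, 2 and 3 within each genotype. The methods compare mice of the same number and name them littermates, and these are called pairs 1, 2 and 3 here. The labels and methods do not give the sex of these mice.

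Immunoglobulin M (IgM) is the first antibody class that a B cell makes. Its heavy chain, encoded by Ighm, sits in the B cell membrane as a receptor, with the signalling partners encoded by Cd79a and Cd79b, or is secreted by plasma cells as a multimer that the product of Jchain holds together. The heavy chain transcript joins a variable part, which differs between B cell clones, to a constant part, and the sources used here do not say which part each probeset reads. T cells carry the CD3 chains of Cd3e and Cd3g, and NK cells and cytotoxic T cells express Nkg7, Gzma and Ccl5. Liver holds resident lymphocytes beside its hepatocytes and its macrophages, the Kupffer cells, and receives more with the blood.

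All signals are given in units of the median of their own array, which was 20.2 to 23.4 for the KRAP-/- arrays and 19.1 to 22.6 for the wild-type arrays before scaling. The probeset of KRAP read 20.0 to 21.6 in KRAP-/- liver and 22.3 to 24.5 in wild-type liver (log2 ratio -0.17, adjusted p = 0.44, limma), and it is not known whether it lies in the deleted exons, so it does not check the labels. The 3′ to 5′ signal ratio of beta-actin, a sign of RNA integrity, was 2.28 to 2.32 in KRAP-/- liver and 2.01 to 2.65 in wild-type liver. Hepatocyte markers such as Fgb, a fibrinogen chain, and Tat, tyrosine aminotransferase, gave summed signals of 4170 to 4797 in KRAP-/- liver and 4318 to 4420 in wild-type liver, so the markers of the labelled tissue were present. The deposited values carry no detection calls. As a gauge of dim signals, 9 probesets for the Y-linked genes Eif2s3y, Kdm5d and Uty read at most 0.526 on any array, while Xist, a transcript of the inactive X, read 66.3 to 85.6. This is the pattern of female mice on all 6 arrays, so the Y-linked probesets read background. Of the 19 probesets 3, namely 2 of Ighm and that of Cd3e, did not exceed 0.526 on any array.

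Upstream sequence was at hand for 6 of the 9 genes and not for Ighm, Cd79b or Ccl5. The 250 bases before the start site of Jchain and of Cd79a are printed because these genes encode partners of the IgM heavy chain. Both are from RefSeq, build GRCm38.p6, written 5′ to 3′ in the direction of transcription, Jchain from the minus strand at chr5:88527898-88528147 and Cd79a from the plus strand at chr7:24897247-24897496. Capitals mark matches to the ETS core AGGAAGT and the E-box CAGGTG.
Jchain: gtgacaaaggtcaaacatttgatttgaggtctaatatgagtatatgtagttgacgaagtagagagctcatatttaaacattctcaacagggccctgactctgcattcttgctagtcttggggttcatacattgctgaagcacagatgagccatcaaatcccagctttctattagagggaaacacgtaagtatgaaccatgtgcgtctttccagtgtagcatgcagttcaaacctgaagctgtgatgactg
Cd79a: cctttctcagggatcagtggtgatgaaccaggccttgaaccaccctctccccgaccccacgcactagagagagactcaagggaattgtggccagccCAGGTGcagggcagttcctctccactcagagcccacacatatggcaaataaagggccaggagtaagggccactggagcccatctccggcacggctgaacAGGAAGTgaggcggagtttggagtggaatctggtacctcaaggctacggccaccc
Both strands were searched for these 2 motifs and for the octamer ATGCAAAT, which are often described in promoters of B cell genes. Cd79a held the ETS core 55 bases before its start site and the E-box 154 bases before it. Jchain held none of the 3. Among the 6 windows, the octamer was in 0, the ETS core in 2 (Cd79a and Cd3e) and the E-box in 3 (Cd79a, Cd3g and Gzma). Over all 32851 windows of this length, 1.6% held the octamer, 7.69% the ETS core and 17.2% the E-box. A match describes the letters and shows no binding.

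The signal of Ighm was lower in KRAP-/- liver at 2 of its probesets, and none of its other tested probesets passed the test. Of the 8 tested, 4 had estimates below 0, these 2 among them, and 4 had estimates above 0. Log2 signals, with values under 0.1 raised to 0.1, entered a limma fit that blocked on the pair and took in the 28531 probesets whose mean signal was 0.5 or more. Adjusted p-values are Benjamini-Hochberg values over all of them, and an adjusted p under 0.05 was called. Of the 11 Ighm probesets 8 reached that mean, 2 were called lower, 0 higher, and 6 were not called. Across all probesets tested, 0.978% were called lower and 0.431% higher. The lower ones made up 69.4% of all calls, but 54.5% with the values as deposited and 57.9% after quantile normalization.

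The probeset 1427351_s_at, which had the highest mean signal of the 11, read 2.47, 6.43 and 7.27 in KRAP-/- liver of pairs 1, 2 and 3, against 19.8, 29.8 and 13.1 in wild-type liver. Every KRAP-/- mouse was below every wild-type mouse, and pair 1 had the lowest ratio to the littermate. KRAP-/- liver averaged 5.39 ± 2.57 and wild-type liver 20.9 ± 8.44 (SD over 3 mice of each genotype). This was a log2 fold change, KRAP-/- over wild-type, of -2.02 (standard error 0.32, 95% interval -2.74 to -1.31, adjusted p = 0.019 by limma).

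The probeset 1427329_a_at gave the other call. It read 3.55, 4.81 and 5.64 in KRAP-/- liver, against 12.1, 17.2 and 11.6 in wild-type liver, with no overlap between the genotypes. The ratio to the wild-type littermate was 0.294, 0.279 and 0.487 in pairs 1, 2 and 3, a narrower spread than the 0.124, 0.215 and 0.557 of the first probeset. The fit gave -1.55 on the log2 scale (standard error 0.17, 95% interval -1.93 to -1.17, adjusted p = 0.0038 by limma). Both calls rest on the limit on dim probesets and on the intensity trend of the moderated variance. With all probesets tested, adjusted p was 0.418 for 1427351_s_at and 0.383 for 1427329_a_at, and without the trend 0.427 and 0.422, settings under which no probeset of the array passed.

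The third probeset by mean signal, 1425385_a_at, had ratios to the littermate on both sides of 1. It read 1.23, 6.82 and 6.99 in KRAP-/- liver, against 3.46, 10.5 and 3.39 in wild-type liver. KRAP-/- liver was thus lower in pairs 1 and 2 and higher in pair 3, at ratios of 0.357, 0.648 and 2.06. Its estimate was -0.36 (standard error 0.38, adjusted p = 0.71, limma). Without pair 3 it was -1.06 with an adjusted p of 0.031, and without pair 1 it was 0.21. Such fits rest on 2 mice of each genotype. Over all probesets, 469 were called lower and 295 higher without pair 3, against 279 and 123 with all pairs.

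At a further pair of probesets with signals above the array median, the genotypes overlapped and no difference passed the test. The probeset 1427870_x_at read 4.11, 5.45 and 3.48 in KRAP-/- liver, against 3.17, 6.63 and 3.16 in wild-type liver (log2 fold change 0.08, 95% interval -0.31 to 0.47, adjusted p = 0.87, limma). This interval does not reach the estimates of either called probeset. The probeset 1425247_a_at read 2.80, 1.73 and 1.58 in KRAP-/- liver, against 1.54, 3.64 and 1.71 in wild-type liver (-0.11, 95% interval -0.86 to 0.65, adjusted p = 0.91). In both, wild-type liver of pair 2 was the highest of the 6.

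At the dim end of the tested range the estimates lay above 0. The probeset 1427756_x_at read 0.963, 1.34 and 0.768 in KRAP-/- liver, against 0.0187, 0.581 and 0.390 in wild-type liver. Every KRAP-/- mouse was above every wild-type mouse here, the reverse of 1427351_s_at. The mean was 1.02 in KRAP-/- liver and 0.330 in wild-type liver, so this probeset reached the mean of 0.5 only through KRAP-/- liver. Its estimate of 1.82 did not pass (standard error 0.67, unadjusted p = 0.024 and adjusted p = 0.26 by limma), and 1 wild-type value lay below the floor and another under the 0.526 of the Y-linked probesets. This estimate depended on how low values were treated, and was 2.62 when the floor was 0.01 and 1.26 when 0.25 was added to each signal instead. The probeset 1425324_x_at read 1.02, 1.06 and 0.826 in KRAP-/- liver, against 0.488, 1.34 and 0.0782 in wild-type liver (1.26, adjusted p = 0.43). The last wild-type value lay below the floor, and the estimate was 0.36 without pair 3 and 2.05 without pair 2. The probeset 1452535_at read 0.927, 1.04 and 0.839 in KRAP-/- liver, against 0.641, 0.755 and 0.865 in wild-type liver (0.32, adjusted p = 0.76). In these last ones the genotypes overlapped.

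The remaining 3 Ighm probesets were too dim to be tested. The probeset 1451949_at read 0.0796 to 0.567 in KRAP-/- liver and 0.0545 to 0.236 in wild-type liver. For 1426196_at the range was 0.0178 to 0.296 in KRAP-/- liver and 0.123 to 0.377 in wild-type liver, and for 1427869_at it was 0.0194 to 0.0240 in KRAP-/- liver and 0.0316 to 0.0385 in wild-type liver. No order was read from signals this low. Another 4 probesets name Ighm together with variable or IgG heavy chain genes and were left out by the rule, and they read 0.0105 to 0.754.

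**Figure D1:**
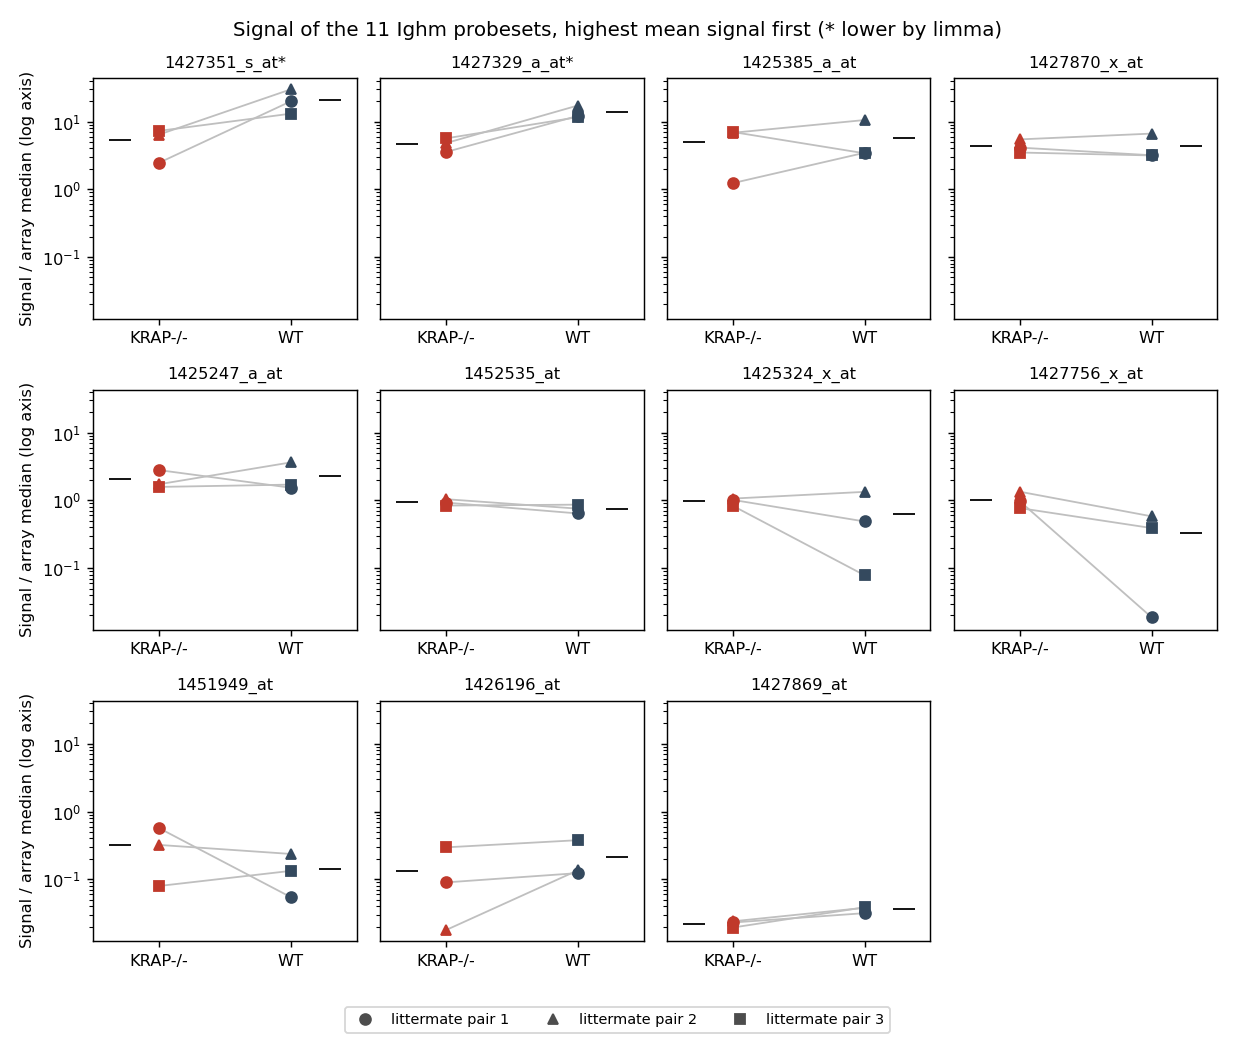
Signal of each of the 11 Ighm probesets in units of the array median, on a log axis, with KRAP-/- mice (red) left of wild-type mice (WT, blue) and grey lines joining littermates; horizontal dashes are group means (n = 3). The 2 probesets marked with an asterisk have every KRAP-/- mouse below every wild-type mouse, while 1427756_x_at has the opposite order and 1425385_a_at is higher in KRAP-/- liver in pair 3 alone.

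The suffix of an Affymetrix name tells how specific its oligonucleotides are: _at is unique, _a_at covers transcripts of the same gene, _s_at covers several transcripts that can be of a gene family, and _x_at includes oligonucleotides that may cross-hybridize. The 3 _a_at probesets and the 1 _s_at probeset had log2 fold changes below 0, at -1.55, -0.36, -0.11 and -2.02. The 3 _x_at probesets and the only tested one of 4 _at probesets were above 0, at 0.08, 1.26, 1.82 and 0.32. The signs of 3 estimates did not hold without single pairs. Without pair 1, 1425385_a_at turned to 0.21 and 1427870_x_at to -0.071. Without pair 2, 1425247_a_at turned to 0.38. The sign of 1452535_at held, at 0.21 without pair 1, 0.24 without pair 2 and 0.50 without pair 3. Signal from other heavy chain transcripts cannot be told apart from that of Ighm on the _s_at and _x_at probesets.

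Because both called probesets and the others were measured on the same arrays, the unequal change was also taken within each array, as the log2 ratio of a called probeset to another. The ratio of 1427351_s_at to 1427870_x_at was -0.74, 0.24 and 1.06 in KRAP-/- liver, against 2.64, 2.17 and 2.05 in wild-type liver, a difference of -2.10. The ratio of 1427329_a_at to the same probeset was -0.21, -0.18 and 0.70 in KRAP-/- liver, against 1.93, 1.38 and 1.88 in wild-type liver, a difference of -1.63. The ratio of 1427329_a_at to 1425385_a_at overlapped between the genotypes. It was 1.52, -0.50 and -0.31 in KRAP-/- liver, against 1.81, 0.71 and 1.77 in wild-type liver, a difference of -1.19. The other 11 of the 12 ratios of a called to an uncalled tested Ighm probeset did not overlap. Only the difference between genotypes can be read from such a ratio, not its own size. The numerators were chosen for their calls, so these ratios are a description, with no test.

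Jchain, whose product links IgM and IgA into multimers, was lower in each KRAP-/- mouse than in its littermate but did not pass the test. It read 3.32, 5.83 and 5.07 in KRAP-/- liver, against 5.73, 9.15 and 5.57 in wild-type liver. The ranges overlapped, and pair 3 had the smallest gap, at a ratio of 0.910 against 0.580 and 0.637 in pairs 1 and 2. The log2 fold change was -0.52 (standard error 0.16, adjusted p = 0.18, limma). Without pair 3, a fit on 2 mice of each genotype, it was -0.72 with an adjusted p of 0.048.

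Relative to Jchain on the same array, the called Ighm probesets were lower in every KRAP-/- mouse than in every wild-type mouse. The log2 ratio of 1427329_a_at to Jchain was 0.10, -0.28 and 0.15 in KRAP-/- liver, against 1.08, 0.91 and 1.06 in wild-type liver, a difference of -1.02, again given as a description. For 1427351_s_at the ratio to Jchain differed by -1.50. Igha, the heavy chain of IgA, which is no member, read 12.9, 22.5 and 22.0 in KRAP-/- liver, against 18.8, 32.02 and 20.3 in wild-type liver at 1421653_a_at (-0.31, adjusted p = 0.33, limma). Its other 2 probesets had log2 fold changes of -0.46 and -0.36 (adjusted p = 0.17 and 0.39).

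Neither signalling chain of the B cell receptor passed the test. Cd79a read 0.861, 0.125 and 0.626 in KRAP-/- liver, against 0.934, 1.21 and 0.670 in wild-type liver. The gap lay almost wholly in pair 2, where the ratio was 0.104, against 0.922 and 0.935 in pairs 1 and 3. The estimate was -1.16 on the log2 scale (standard error 0.71, adjusted p = 0.49, limma), and -0.11 without pair 2. Cd79b read 2.21, 1.63 and 1.90 in KRAP-/- liver, against 1.95, 2.48 and 1.86 in wild-type liver, higher in 2 of 3 KRAP-/- mice than in their littermates. Its log2 fold change was -0.13 (95% interval -0.67 to 0.41, adjusted p = 0.84), and 0.11 without pair 2.

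The CD3 chains of the T cell receptor complex were dim. Cd3e read 0.422, 0.312 and 0.394 in KRAP-/- liver, against 0.325, 0.194 and 0.238 in wild-type liver, all below the highest Y-linked value, and it was not tested. Cd3g read 1.05, 0.692 and 1.04 in KRAP-/- liver, against 0.420, 0.927 and 0.415 in wild-type liver. It was higher in KRAP-/- liver in pairs 1 and 3 and lower in pair 2, and the estimate was 0.74 on the log2 scale (standard error 0.53, adjusted p = 0.55, limma).

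Nkg7, a protein of cytotoxic granules, was the only member outside Ighm whose genotypes did not overlap. It read 0.476, 0.763 and 0.111 in KRAP-/- liver, against 0.927, 1.27 and 1.26 in wild-type liver. The log2 fold change was -1.73 (standard error 0.65, adjusted p = 0.26, unadjusted p = 0.025, limma), and -0.85 without pair 3, where the KRAP-/- value lay near the floor. The KRAP-/- values of pairs 1 and 3 lay under the 0.526 of the Y-linked probesets. The mean was 0.450 in KRAP-/- liver and 1.15 in wild-type liver, so Nkg7 reached the mean of 0.5 only through wild-type liver. Ccl5, a chemokine of T and NK cells, read 1.13, 2.02 and 1.77 in KRAP-/- liver, against 1.87, 2.81 and 2.32 in wild-type liver. It was lower in each KRAP-/- mouse than in its littermate, at ratios of 0.602 to 0.765, with ranges that overlapped (-0.53, standard error 0.22, adjusted p = 0.30). Gzma, a granule protease, read 0.793, 1.31 and 0.858 in KRAP-/- liver, against 0.618, 1.28 and 1.16 in wild-type liver (-0.02, 95% interval -0.83 to 0.80, adjusted p = 0.99). Its estimate crossed 0 with the values as deposited, at 0.035.

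**Figure D2:**
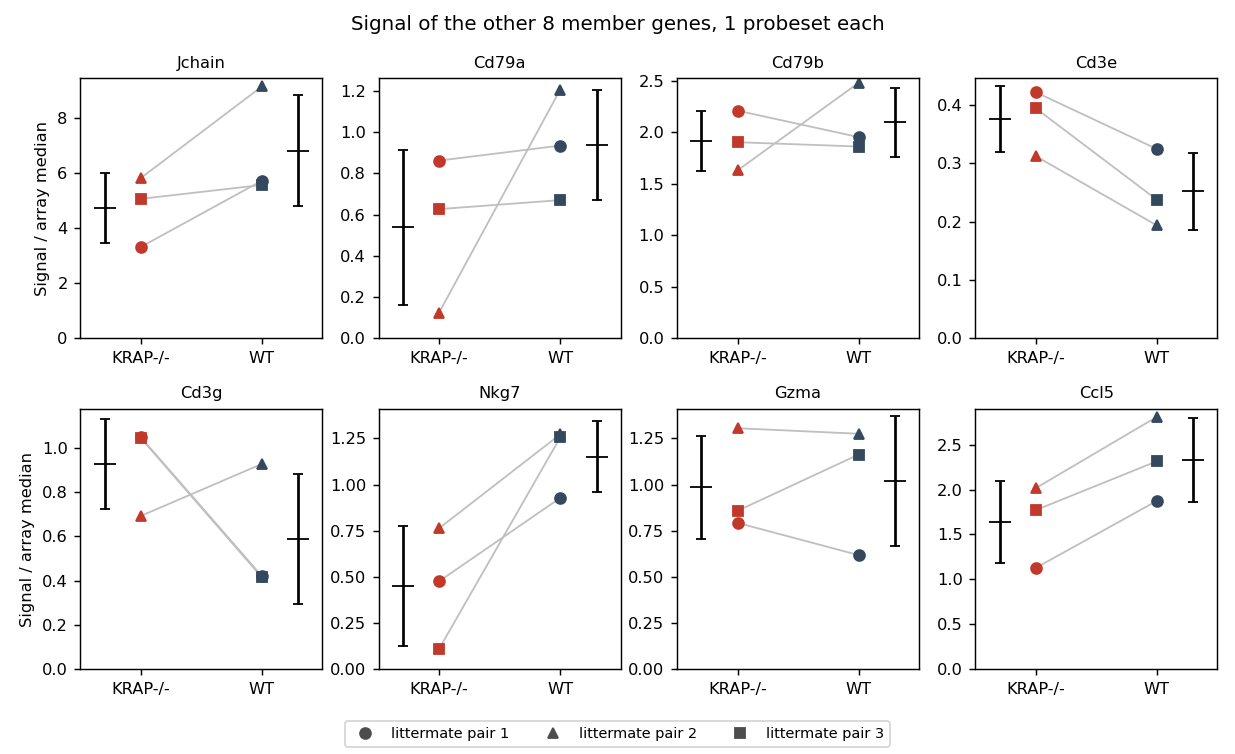
Signal of the other 8 genes in units of the array median, on linear axes that start at 0 and differ between panels, with KRAP-/- mice (red) left of wild-type mice (WT, blue), grey lines joining littermates, and black bars for the mean and SD (n = 3). Nkg7 is the panel without overlap, Ccl5 and Jchain are lower in each KRAP-/- mouse than in its littermate, and the gap in Cd79a lies in pair 2.

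Over all 9 genes, 15 of 19 probesets were tested, 2 were called lower and 0 higher, and 6 had an unadjusted p under 0.05, as had 14.9% of all probesets tested. Of these 6 only 1427756_x_at was above 0. Of the 15, 10 had a log2 fold change below 0 and 5 above, with a median of -0.13. Over all probesets tested the median was -0.04 and 55.2% were below 0. Among the tested members 3 had every KRAP-/- mouse below every wild-type mouse and 1 the reverse, against 12.3% and 7.8% of all probesets tested. Of these, Nkg7 and 1427756_x_at reached the mean of 0.5 only through the genotype with the higher signal. A ratio to the littermate of at least 1.5 or at most 1/1.5 in all 3 pairs, the rule of the methods, was met by 3 members on the lower side, the 2 called Ighm probesets and Nkg7, and by 1427756_x_at on the higher side. That rule, as applied here, took 2.88% of all 45037 probesets (1299) as lower and 2.3% (1035) as higher. The study reports fewer in each direction for liver, so its counts were not reproduced, and the reason was not tested. Wild-type liver of pair 2 had the highest signal of the 6 arrays at 11 of the 15 tested member probesets, and at 15.1% of all probesets tested. Without pair 2, 2 member probesets were called lower, and 8 of the 15 lay below 0 and 7 above.

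**Figure D3:**
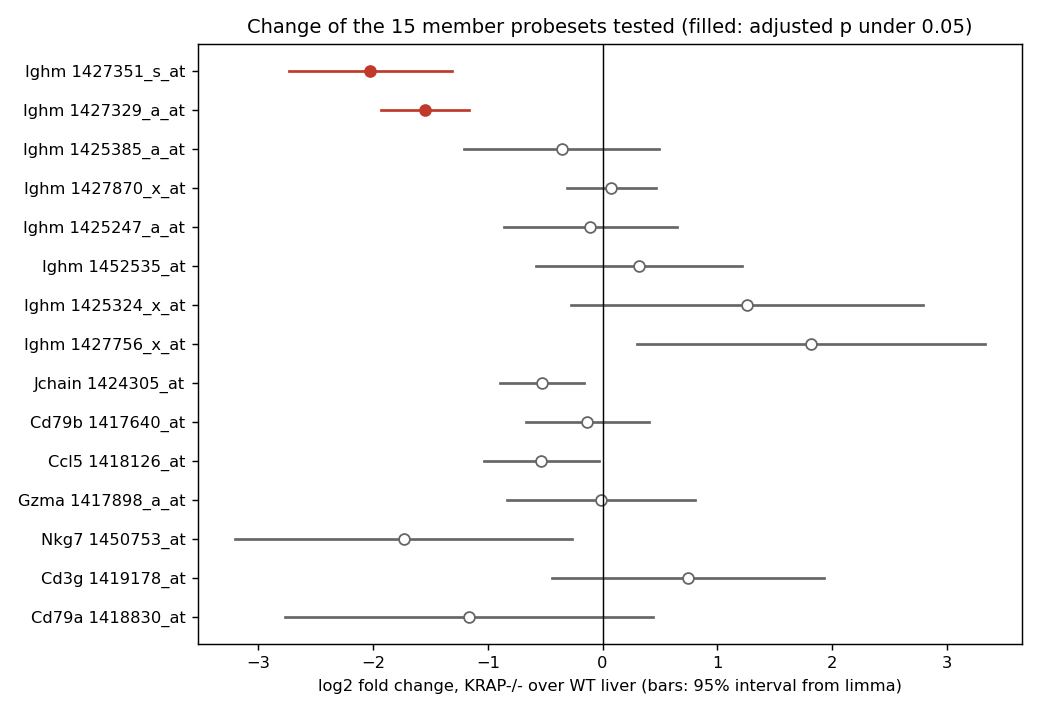
Log2 fold change of KRAP-/- over wild-type liver for the 15 tested probesets, with 95% intervals from limma; filled red points have an adjusted p under 0.05 and open points do not. The 2 called Ighm probesets stand at -2.02 and -1.55, the other 6 of Ighm run between -0.36 and 1.82, and Nkg7, Jchain and Ccl5 have intervals below 0, and 1427756_x_at has an interval above 0, with adjusted p above 0.05 in all 4.

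Other genes of the same cell types were counted at the probeset with the highest mean signal of each. Of 84 genes in 4 lists, 65 had a probeset of their own and 45 were tested. None of the 45 was called in either direction by limma, 10 had an unadjusted p under 0.05 (14.9% of all probesets tested had), and 71.1% lay below 0, with a median of -0.22. Thus no further B, plasma, T or NK gene of these lists passed the test.

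Among the other B cell genes, 14 of 18 were tested, 7 of them below 0, with a median log2 fold change of -0.18. The lowest was Blnk, the adaptor that passes on the B cell receptor signal, at 1.24, 0.920 and 0.708 in KRAP-/- liver, against 1.66, 4.52 and 2.23 in wild-type liver (-1.46, adjusted p = 0.095). Without pair 1, and so with fewer mice of each genotype, it passed, at -1.98 (adjusted p = 0.0040). Btk, a kinase of the same pathway, followed at -1.21 (adjusted p = 0.52). It read 0.573, 0.117 and 0.332 in KRAP-/- liver, against 0.891, 0.769 and 0.402 in wild-type liver, in part under the 0.526 of the Y-linked probesets. Btk reached the mean of 0.5 only through wild-type liver. The summed signal of the list was 13.0 to 16.6 in KRAP-/- liver and 16.8 to 21.3 in wild-type liver, and without Blnk 12.1 to 15.3 in KRAP-/- liver and 15.1 to 16.8 in wild-type liver.

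Among the other immunoglobulin and plasma cell genes, 10 of 23 were tested, 7 below 0, with a median of -0.25. Mzb1, a chaperone that aids IgM assembly in the endoplasmic reticulum, read 1.25, 1.44 and 1.22 in KRAP-/- liver, against 2.13, 2.24 and 2.20 in wild-type liver. The genotypes did not overlap, but the fit gave -0.75 with an adjusted p of 0.18. Iglv1, a lambda light chain variable gene, had -0.72 (adjusted p = 0.28). Without pair 3, and so with fewer mice of each genotype, Igha passed on the lower side (-0.52, adjusted p = 0.039). Derl3, of endoplasmic reticulum degradation, passed in the same fit on the higher side (0.94, adjusted p = 0.018). The summed signal was 584 to 632 in KRAP-/- liver and 532 to 624 in wild-type liver, of which Pigr, Sdc1 and Xbp1, which hepatocytes also express, made 93.5% to 96.5% in KRAP-/- liver and 92.1% to 95.5% in wild-type liver. Without these 3 it was 22.2 to 39.1 in KRAP-/- liver and 28.3 to 45.9 in wild-type liver.

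Of the other T cell genes, 11 of 23 were tested, 9 below 0, with a median of -0.21. Thy1, a surface protein of T cells, stood at -0.94 (adjusted p = 0.25) and Lat, an adaptor of the T cell receptor, -0.77 (adjusted p = 0.55). Their sum was 24.6 to 32.1 in KRAP-/- liver and 30.2 to 36.4 in wild-type liver, of which Zap70, a kinase of the T cell receptor, made 57.0% to 66.1%. Without Zap70 it was 9.08 to 11.39 in KRAP-/- liver and 11.44 to 14.7 in wild-type liver. Of the other NK and cytotoxic genes, 10 of 20 were tested, 9 below 0, with a median of -0.24. Il2rb, a chain of the receptor for interleukins of T and NK cells, had -1.49 (adjusted p = 0.31) and Xcl1, a chemokine, -1.20 (adjusted p = 0.44). In KRAP-/- liver Il2rb read 0.221 and 0.208 in pairs 1 and 2, and Xcl1 0.184 in pair 2, all under 0.526. The summed signal of this list was 16.5 to 19.9 in KRAP-/- liver and 20.8 to 22.0 in wild-type liver. Without its largest part, the granzyme inhibitor Serpinb9, it was 9.73 to 12.9 in KRAP-/- liver and 12.4 to 13.8 in wild-type liver. In each of these lists 3 genes did not exceed 0.526 on any array.

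The summed signals of pan-leukocyte and Kupffer cell genes were lower in every KRAP-/- mouse than in every wild-type mouse. Those of the B cell and NK lists were too, but overlapped once Blnk or Serpinb9 was left out. The T cell sums overlapped unless Zap70 was left out. The immunoglobulin sums overlapped with and without Pigr, Sdc1 and Xbp1. Pan-leukocyte genes, such as Cd48 (-0.57, adjusted p = 0.32) and Ptprcap (-0.66, adjusted p = 0.55), summed to 88.3 to 94.7 in KRAP-/- liver and 111 to 128 in wild-type liver, with 14 of 16 below 0, a median of -0.37 and 0 called, though 8 had an unadjusted p under 0.05 by limma. Over all probesets tested, 55.2% were below 0, 14.9% had an unadjusted p under 0.05 and 0.978% were called lower. Kupffer cell and macrophage markers summed to 247 to 255 in KRAP-/- liver and 284 to 341 in wild-type liver. Of these 12 genes, 11 were below 0, with a median of -0.40, 7 had an unadjusted p under 0.05 and 1 was called lower. That gene, Clec4f, the Kupffer cell lectin, read 22.5, 24.0 and 22.9 in KRAP-/- liver, against 31.6, 34.8 and 34.1 in wild-type liver (-0.54, standard error 0.09, adjusted p = 0.025). Taking the deposited signals without scaling, it missed the threshold (-0.49, adjusted p = 0.070), as it did with all probesets tested (adjusted p = 0.383) and without the intensity trend (adjusted p = 0.422). Without the largest part of each sum, Lcp1 and Csf1r, the genotypes still did not overlap, at 64.5 to 70.9 in KRAP-/- liver and 84.3 to 94.96 in wild-type liver for pan-leukocyte genes, and 188 to 191 in KRAP-/- liver and 221 to 267 in wild-type liver for Kupffer cell markers. The part of these shifts in the Ighm result was not tested. In bulk RNA, fewer cells of a type and less RNA per cell cannot be told apart.

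Neutrophil and monocyte markers differed from these, summing to 25.3 to 34.7 in KRAP-/- liver and 19.4 to 25.7 in wild-type liver, with 4 of 6 tested above 0 and 2 below, a median of 0.50 and 0 called by limma (2 at an unadjusted p under 0.05). Lcn2, a protein of neutrophil granules that hepatocytes also make, was 47.3% to 69.6% of the sum. Without it the sum was 10.6 to 12.4 in KRAP-/- liver and 8.23 to 11.7 in wild-type liver, which overlap. Csf3r, the receptor of granulocyte growth factor, had 0.87 (adjusted p = 0.25) and Ccr2, a chemokine receptor of monocytes, 0.55 (adjusted p = 0.45). Red cell and platelet markers summed to 16.5 to 22.6 in KRAP-/- liver and 17.2 to 23.6 in wild-type liver. Of these 5 were tested, 3 below 0 and 2 above, with a median of -0.12, and 0 were called or at an unadjusted p under 0.05 by limma. The ones above 0 were Slc4a1, the red cell anion exchanger, at 1.24 (adjusted p = 0.45) and Hbb-bt, a beta globin, at 0.32 (adjusted p = 0.45). Hepatocyte markers had a median of 0.01 over 8 genes, 0 of them called or at an unadjusted p under 0.05, with Fgb at 0.12 and Tat at -0.25.

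**Figure D4:**
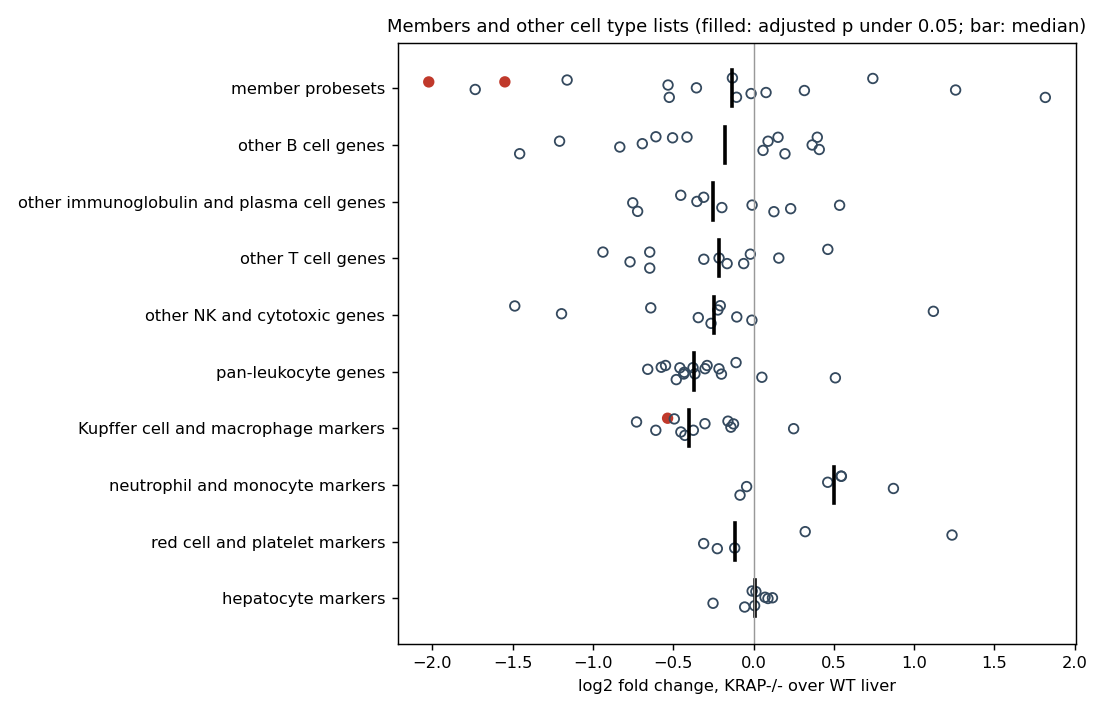
Log2 fold change of KRAP-/- over wild-type liver for the 15 tested member probesets (top) and for each tested gene of 9 other lists at its probeset with the highest mean signal; filled red points have an adjusted p under 0.05, black bars are medians, and points are spread vertically only to separate them. The 4 lymphocyte lists have medians of -0.18 to -0.25 and no filled point, and the pan-leukocyte and Kupffer medians stand at -0.37 and -0.40.

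The genes whose signals ran most like those of 1427351_s_at were sought over the 6 arrays, by the mean absolute difference of log2 signals after each was centred on its own mean. The nearest outside the members were Rinl (0.22), Prss41 (0.27), Cyp2c55 (0.27), Esx1 (0.29) and Kcnt1 (0.30). In KRAP-/- liver Rinl, Prss41, Esx1 and Kcnt1 read 0.109 to 0.496, under the 0.526 of the Y-linked probesets. In wild-type liver they read 0.648 to 1.53, so they reached the mean of 0.5 only through wild-type liver. Cyp2c55 read 0.666 to 2.85 in KRAP-/- liver and 2.98 to 6.82 in wild-type liver. None of the 5 was called, with adjusted p of 0.15 to 0.35 and log2 fold changes of -2.31 to -1.54. The probeset 1427329_a_at stood at 0.33 on the same measure. The other tested members were farther off, from 0.74 for Ccl5 and 0.75 for Jchain to 1.92 for 1427756_x_at. These are descriptions over 6 arrays, and Ighm itself carries the genotype difference in them.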

How the data were processed

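The 6 arrays hold liver RNA, 1 mouse each, from 3 littermate pairs of KRAP-/- and wild-type mice. The authors deposited linear signal intensities from the GCOS software, per the labels, without the later normalization by chip and by gene. GCOS versions are not given in the sources used here. Each intensity was divided by its array's median, and 64 of 45101 probesets, controls, were left out. The number of arrays limits the precision. Symbols came from the platform annotation, in which 34945 of the 45037 probesets have 1 symbol, 932 several and 9160 none listed.

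With a floor of 0.1, log2 signals of the 28531 probesets averaging 0.5 or more entered limma 3.58.1 (R 4.3.3), with a block for the pair, an intensity trend and Benjamini-Hochberg adjustment at 0.05. The fit was also run on data simulated from its own means and variances without pair effects, which cannot check those assumptions. Tables and figures used Python 3.11.15, numpy 2.4.6, matplotlib 3.10.9 and pandas 2.3.3. The pairing comes from the series' design, which names the mice as littermates. Deviations from the genotype means correlated at 0.043, 0.0095 and -0.012 in pairs 1, 2 and 3.

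The members and lists were chosen with earlier results of these data known. The text names every member probeset and, in each other list, up to 4 called genes or otherwise the 2 with the largest change, then the 5 genes most like 1427351_s_at. Igha, Derl3, Pigr, Sdc1, Xbp1 and the genes with the largest part of a list's sum were named after their values were seen. Alternatives were deposited signals without scaling, quantile normalization, a floor of 0.01, a pseudocount of 0.25, a mean of at least 1 or no limit on the mean, a fit without the block, a fit without the trend, a limit of 2-fold, and omission of each pair in turn.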

Additional observations from a re-analysis of the deposited data

How the results depend on the processing

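With all probesets tested, and likewise without the intensity trend, 0 member probesets and 0 of all probesets were called lower or higher by limma. At an unadjusted p under 0.05 there were 4551 of 45037 and 3089 of 28531 probesets, 4 of them members in each setting. In the other 9 settings the 2 called Ighm probesets passed again, with log2 fold changes of -2.61 to -1.53 for 1427351_s_at and -1.80 to -1.40 for 1427329_a_at over all settings. Leaving out a pair left 2 mice per genotype and gave 2 to 4 members lower, 4 without pair 3, where 1425385_a_at and Jchain joined. It gave 123 to 295 higher and 288 to 469 lower over all probesets, 0 to 1 other lymphocyte gene higher and 0 to 1 lower. Without the replicate block there were 2 members lower, and 93 higher and 255 lower over all probesets, against 123 and 279 with it. By the 1.5-fold rule, 1 to 3 members were higher and 3 to 5 lower when a pair was left out, and 0 were higher and 1 lower when the limit was 2-fold. Leaving out each pair, estimates ranged over 0 at 1425247_a_at (-0.59 to 0.38), 1425385_a_at (-1.06 to 0.21), 1427870_x_at (-0.071 to 0.26), Cd79b (-0.29 to 0.11) and Gzma (-0.20 to 0.20), and Gzma turned to 0.035 with the values as deposited. The cause was not tested. Over all alternatives, 147 estimates of single member probesets kept their direction and their side of the threshold, 4 lost and 2 gained a call, and 6 changed sign. Dim signals limit the rest, since values under 0.526 could not be told from those of Y-linked probesets.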
